A study of Danio rerio with 7 samples.

Results

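RNA from whole zebrafish larvae that received a high-fat diet and an overnight bath of CACF was compared with RNA from larvae on a normal diet. CACF is an agent that the labels name only by this acronym. The comparison used 5 of the 7 libraries of the study, 2 from the CACF group and 3 from the normal-diet group, and it covered 20906 genes tested of 29567 in the deposited table. All 7 libraries carried the genotype given as CD36 overexpression, including the controls, and all larvae were taken at 15 days post fertilization. The normal diet was labelled 12% and the high-fat diet 24%, both fed from day 5. CACF was given at 40 µg/ml in E3, an embryo buffer, from 4 pm to 9 am after the last meal. The same hours are listed for all 7 libraries, with 0 µg/ml of CACF outside the CACF group. The third group, 2 libraries on the 24% diet without CACF, entered the fit for its spread, and its values are set beside the others. Since the compared groups differed in both diet and CACF, the effects of diet and agent cannot be told apart in this contrast. The promoter of the transgene, the clutches of the larvae and the hour at which each larva was collected are not given in the sources used here. Replicates are labelled as separate fish (fish 1, 2 and 4 on the normal diet, fish 2 and 4 with CACF), and whether a library is 1 larva is not given. The p-values measure the spread between labelled fish within all 3 groups, and they also draw on the spread of other genes.

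CD36 sits in the cell membrane, where it binds oxidized lipoproteins and brings long-chain fatty acids into cells. The circadian clock is a loop in which CLOCK and BMAL proteins drive the genes of their own repressors (PER, CRY, DEC and CIART proteins) and of REV-ERB receptors, which in turn repress BMAL genes. PAR bZIP factors such as DBP and TEF carry the rhythm to output genes. In cone and rod photoreceptors, light-activated opsin acts through transducin on a phosphodiesterase that breaks down cyclic GMP. Arrestins, kinases and guanylate cyclase activators then shut the response off, a step that recoverin-type proteins help to regulate. Zebrafish tissues hold light-responsive clocks of their own, and many photoreceptor genes are rhythmic in fish larvae.

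The compared libraries held 18898959 to 22543693 reads and the high-fat libraries without CACF 12699552 and 15819634. CACF fish 2 and normal-diet fish 1 stood apart from the rest, with median correlations to the other libraries of 0.858 and 0.877 against 0.918 to 0.93 for the other 5. Normal-diet fish 1 also held 8.64% of its reads in lens genes, against 0.0907% to 0.237% elsewhere, so list medians that move by over 1.5 times are given with and without these 2 fish. The cd36 gene, which the label says is overexpressed in every group, had 3215, 172 and 223 normalized counts on the normal diet, 169 and 154 with CACF and 607 and 448 on the high-fat diet alone. Its difference did not pass the test (log2 fold change -1.63 ± 1.05, limma adjusted p = 0.508), and reads of a transgene and of the resident gene were not separated.

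Most of the genes past the threshold were genes of the clock or of the retina, and all called genes were lower with CACF. Of 20906 genes, 31 fell and 0 rose at a limma adjusted p under 0.05, a background of 0.148% lower and 0.0% higher. At an unadjusted p under 0.05, 1796 genes were lower and 1075 higher. By roles assigned after the values were seen, 9 of the 31 are clock genes, 10 are genes of photoreceptors or their synaptic partners, and 12 have other or unknown roles. Their log2 fold changes (normalized count + 1) lay between -1.69 and -5.17, and in all 31 every CACF library was below every normal-diet library. That separation was common in the table, where 16.7% of genes were lower and 16.3% higher without overlap.

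The number of calls depended on single libraries. Without normal-diet fish 1 the count lower was 6, without normal-diet fish 2 it was 1, and without normal-diet fish 4 it was 0 (1375 at an unadjusted p under 0.05). Leaving out CACF fish 2 gave 2, and leaving out CACF fish 4 gave 344 lower and 28 higher. Without high-fat fish 2 or 4, which only inform the spread, 2 genes were called each time. On whole reads recovered from the table, edgeR called 4 lower and 0 higher, while DESeq2 called 543 lower and 128 higher, the 31 genes among them. A replicate block on the fish numbers gave 101 lower and 11 higher, the 31 again among them. Normal-diet fish 1 has no partner of its number and drops out of that fit, so calls that appear only there are given beside the lists. All 31 kept their direction in all 20 alternatives. Since their groups did not overlap, leaving out a library or changing the pseudocount or filter could not have reversed it. The REV-ERB gene nr1d1 was called in 19 of the 20, with its highest limma adjusted p, 0.0552, without normal-diet fish 4, and bhlhe41 in 17. Every other called gene passed in fewer, from 9 (cipcb, ppm1na and slc1a8b) to 13 (si:ch211-132b12.7).

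**Figure D1:**
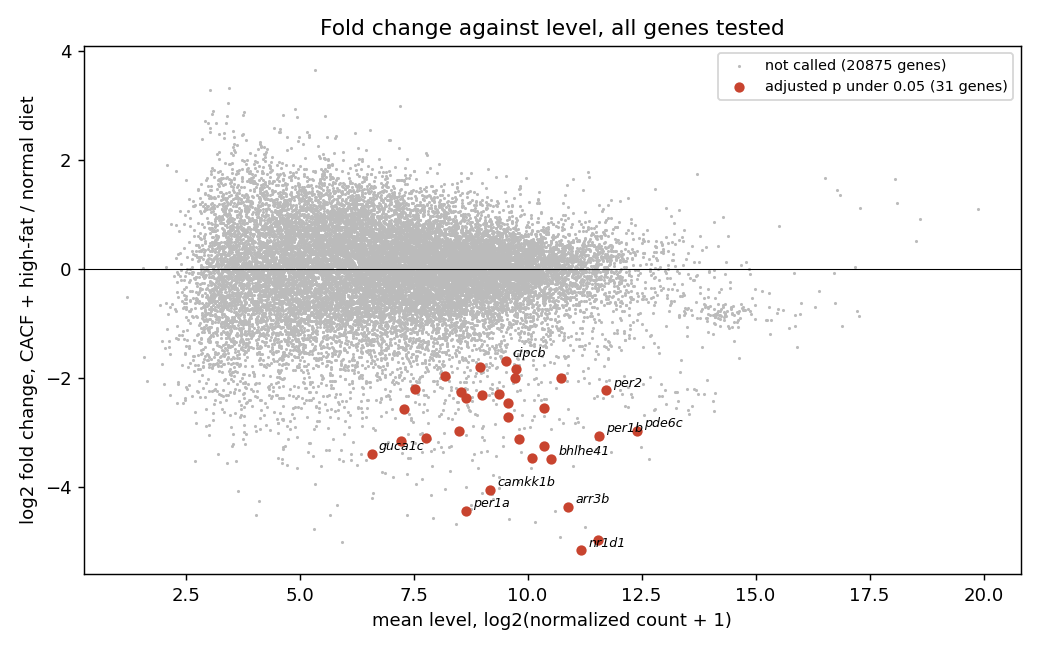
Log2 fold change of CACF with high-fat diet over normal diet (y axis) against mean log2(normalized count + 1) (x axis) for the 20906 genes tested, 1 point per gene. The 31 genes at a limma adjusted p under 0.05 (large points) all lie below 0, with nr1d1 the lowest at -5.17.

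The repressor limb of the clock was low in both CACF fish. Of 18 repressor genes, all tested, 16 were below the normal-diet mean, 15 did not overlap (83.3%, against 16.7% of all genes) and 7 fell past the threshold. Their median log2 fold change was -2.04, against -0.001 over all genes tested. It was -1.50 without normal-diet fish 1 and CACF fish 2. The high-fat libraries without CACF, set against the same normal-diet libraries, had a median of -0.46 for this list. Since the hours of collection are not given, a lower level and a different time in the daily cycle cannot be told apart for clock genes.

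The nr1d1 gene, which encodes REV-ERB alpha, lies at chr3:23488652-23496223 on the plus strand of GRCz11. It had 5204, 3987 and 4344 normalized counts on the normal diet, 78.1 and 195 with CACF, and 4196 and 3250 on the high-fat diet alone. The CACF fish were far below all 5 other fish, which lay close together. The means were 136 ± 82.3 (SD, n = 2) with CACF and 4512 ± 626 (SD, n = 3) on the normal diet, 36.1-fold lower on the log2(count + 1) scale (log2 fold change -5.17 ± 0.37 SE, limma adjusted p = 0.00605). Its relatives nr1d2a and nr1d2b did not pass the test. nr1d2b had 7179, 8263 and 6913 on the normal diet and 934 and 2910 with CACF (log2 fold change -2.17, limma adjusted p = 0.107), and nr1d2a had a log2 fold change of -1.59 with an adjusted p of 0.259.

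Among the period genes, whose proteins bind cryptochromes to inhibit CLOCK and BMAL, 3 of 4 fell. per1a had 843, 738 and 703 normalized counts on the normal diet, 18.3 and 62.2 with CACF, and 613 and 384 on the high-fat diet alone. Both CACF fish were far below the others, and the high-fat fish were below every normal-diet fish. per1a was thus 21.8-fold lower with CACF, a log2 difference of -4.44 ± 0.47 (SE) at a limma adjusted p of 0.0189. per1b had 6478, 5330 and 4392 on the normal diet, 439 and 917 with CACF, and 4145 and 3560 on the high-fat diet (8.39-fold lower, adjusted p = 0.0189). per2, a light-induced period gene in zebrafish, had 6604, 5811 and 4198 against 976 and 1381 with CACF and 4976 and 4268 on the high-fat diet (4.68-fold lower, adjusted p = 0.0303). In per2 the high-fat fish lay within the normal-diet range and the CACF fish below it. The per3 gene, with 4795, 7070 and 3978 against 832 and 1417, missed the threshold (log2 fold change -2.24, adjusted p = 0.0621; 0.0459 with the replicate block).

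The cryptochromes did not move as a family. cry2 fell, with 1520, 1372 and 1044 normalized counts on the normal diet, 167 and 229 with CACF, and 650 and 654 on the high-fat diet alone (log2 fold change -2.72 ± 0.26, limma adjusted p = 0.0189). It was also low on the high-fat diet alone, below all normal-diet fish, and lower again with CACF. cry1a and cry1b did not overlap between the groups but missed the threshold, at log2 fold changes of -0.98 and -1.71. cry3a and cry3b overlapped, at 0.16 and 0.74.

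The remaining repressors that fell were bhlhe41 and ciarta. bhlhe41 encodes DEC2, which competes with CLOCK and BMAL at their binding sites. It had 2599, 2822 and 2663 normalized counts on the normal diet, 188 and 303 with CACF, and 2203 and 1601 on the high-fat diet (log2 fold change -3.49 ± 0.27 or 11.2-fold lower, limma adjusted p = 0.00622). The normal-diet fish were nearly equal, and the CACF fish were far below all others. ciarta, a relative of the mouse repressor CHRONO, had 2368, 2252 and 2496 against 161 and 375 with CACF and 1925 and 1979 on the high-fat diet (9.6-fold lower, adjusted p = 0.0189). The paralog of bhlhe41, bhlhe40, had a log2 fold change of -1.54 and an adjusted p of 0.119.

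The activator limb lay on the other side, although no member passed the test. Of 11 activator genes, all tested, 9 were above the normal-diet mean and 8 did not overlap upward (72.7%, against 16.3% of all genes). Their median log2 fold change was 1.14, or 1.34 without normal-diet fish 1 and CACF fish 2. The high-fat libraries alone had a median of -0.49 against the same controls. The BMAL1 gene arntl1a had 503, 543 and 395 normalized counts on the normal diet, 1133 and 1230 with CACF, and 909 and 700 on the high-fat diet (log2 fold change 1.31 ± 0.25, limma adjusted p = 0.1). In arntl1a the CACF fish were highest and the high-fat fish lay between the groups. Its paralog arntl1b had 76.5, 97.5 and 39.6 against 234 and 252 with CACF and 51 and 48.6 on the high-fat diet, where only the CACF fish stood apart (log2 fold change 1.85 ± 0.43, adjusted p = 0.178). clocka, at low counts, had 40.4, 38 and 16.9 against 168 and 114 (log2 fold change 2.18 ± 0.67, adjusted p = 0.263). The ROR genes, activators that compete with REV-ERB receptors, split: rorca and rorcb were above all normal-diet fish and rorab was below them. With the replicate block rorcb alone of the list passed (adjusted p = 0.0309).

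Of 21 clock output genes tested of 23 in the table, 17 were below the normal-diet mean, 11 did not overlap downward (52.4%, against 16.7% of all genes) and 2 fell, dbpb and cipcb. Their median log2 fold change was -0.68, but -0.36 without normal-diet fish 1 and -0.29 on TPM. dbpb, a PAR bZIP factor that binds D-box elements, had 1715, 2121 and 2147 normalized counts on the normal diet, 110 and 287 with CACF, and 1571 and 1327 on the high-fat diet (log2 fold change -3.48 ± 0.38, limma adjusted p = 0.0189). cipcb, related to a CLOCK-interacting inhibitor in mammals, had 1330, 1006 and 1020 against 371 and 319 with CACF and 813 and 808 on the high-fat diet (adjusted p = 0.0446). In both genes the high-fat fish were below every normal-diet fish, and the CACF fish were lower still. The PAR bZIP genes tefa and dbpa did not overlap but missed the threshold (adjusted p = 0.0718 and 0.0905). The NFIL3 family, which opposes PAR bZIP factors, was mixed. nfil3-5 had 2070, 925 and 827 against 5055 and 2842 (log2 fold change 1.70, adjusted p = 0.192, and 0.0194 with the replicate block), while nfil3-6 was low in both CACF fish and highest in normal-diet fish 1, with 5556, 634 and 385 against 224 and 221. The pineal gene aanat2, of melatonin synthesis, overlapped, with a log2 fold change of -0.05.

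**Figure D2:**
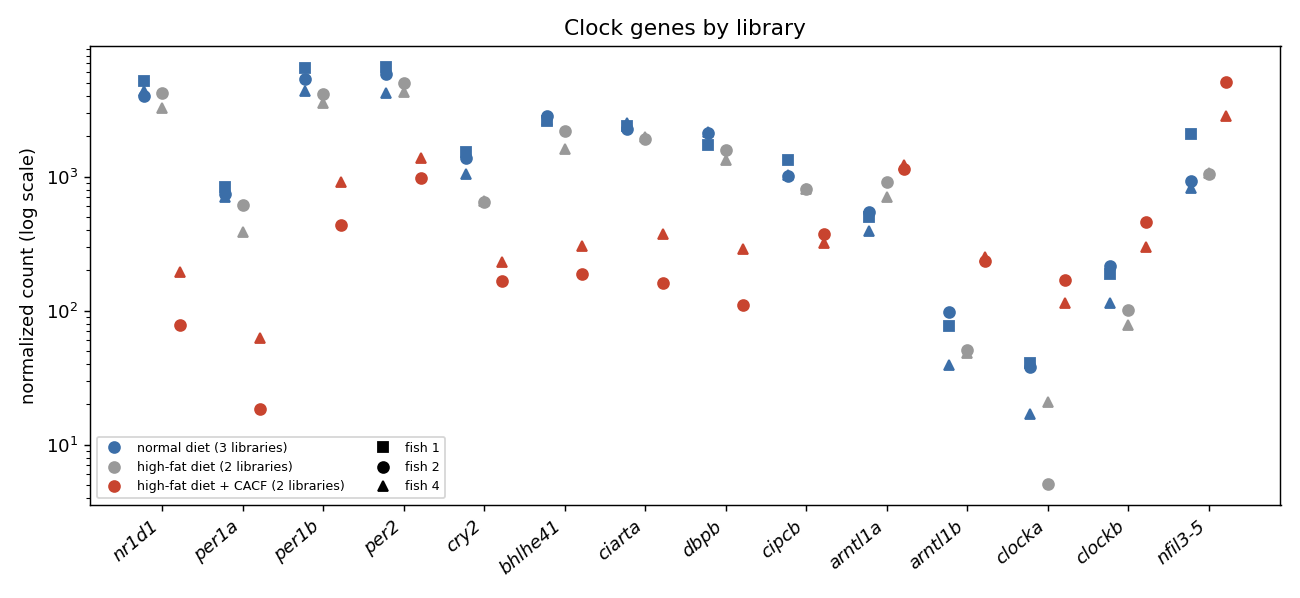
Normalized counts (log scale) of 14 clock genes in each of the 7 libraries, coloured by group and shaped by fish number. From nr1d1 to cipcb the CACF fish lie below all others (nr1d1 at 78.1 and 195), and from arntl1a to nfil3-5 they lie above the normal-diet fish.

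Retinal genes formed the next group of calls. Of 33 cone phototransduction genes tested of 34 in the table, 28 were below the normal-diet mean, 20 did not overlap downward (60.6%, against 16.7% of all genes) and 4 fell (arr3b, pde6c, guca1c and rbp4l). Their median log2 fold change was -1.84, or -1.35 without normal-diet fish 1 and CACF fish 2. The high-fat libraries alone had a median of -0.08 against the same controls. In whole larvae, fewer cones and less RNA per cone cannot be told apart, nor can a difference in the hour of collection, which is not given.

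The 4 cone genes that fell have different roles. arr3b, a cone arrestin that quenches activated opsin, lies at chr14:32837914-32850768. It had 3274, 2580 and 4946 normalized counts on the normal diet, 88.1 and 313 with CACF, and 2349 and 3063 on the high-fat diet (log2 fold change -4.37 ± 0.50 or 20.7-fold lower, limma adjusted p = 0.0237). Both CACF fish were far below all others, and the high-fat fish were close to the normal-diet fish. pde6c, the catalytic subunit of the cone phosphodiesterase, had 8966, 7792 and 11877 against 870 and 1642 with CACF and 8332 and 9799 on the high-fat diet (7.85-fold lower, adjusted p = 0.0189). guca1c, a guanylate cyclase activator, had 257, 109 and 158 against 11.6 and 18.3 with CACF and 135 and 101 on the high-fat diet (adjusted p = 0.0446). In each of these genes the high-fat fish stayed near the normal-diet fish. rbp4l, a member of the retinol-binding protein family, had 1848, 1172 and 1735 against 103 and 301 with CACF (adjusted p = 0.0446).

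Of the remaining cone genes, 10 more passed with the replicate block, where 14 of the list were lower, against 101 of all 20906 genes. The second cone arrestin arr3a had 10191, 9691 and 15162 normalized counts on the normal diet and 456 and 2271 with CACF (limma adjusted p = 0.0759, and 0.0194 with the block). The recoverin gene rcvrn3 had 2601, 2314 and 3694 against 262 and 652 (adjusted p = 0.0621, and 0.00733 with the block). The kinase gene grk7a had an adjusted p of 0.0905 and the cone transducin gene gnat2 one of 0.167, which were 0.00626 and 0.025 with the block. The cone opsin genes opn1sw1, opn1lw1 and opn1lw2 did not share this pattern. The ultraviolet opsin opn1sw1 had 6876, 12089 and 14168 on the normal diet and 5850 and 7567 with CACF, which overlapped (log2 fold change -0.67). The long-wave opsin opn1lw1 was higher with CACF, with 181, 284 and 138 against 740 and 581 and with 240 and 274 on the high-fat diet (log2 fold change 1.76 ± 0.34, adjusted p = 0.107). Since opn1lw1 and opn1lw2 are near-identical neighbours, reads could be split between them, and opn1lw2 overlapped between the groups at a log2 fold change of 0.61.

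Rod genes were lower by less. Of 26 rod phototransduction genes tested of 27, 24 were below the normal-diet mean, 19 did not overlap downward (73.1%, against 16.7% of all genes) and 0 passed the test, with 17 at an unadjusted p under 0.05. Over all 20906 genes, 1796 were lower at that unadjusted level. With the replicate block, saga, a rod arrestin gene, passed (adjusted p = 0.0193). The rod genes had a median log2 fold change of -1.05, and the high-fat libraries alone had a median of -0.16. Rhodopsin, rho, had 17521, 23577 and 19893 normalized counts on the normal diet and 11350 and 14006 with CACF (log2 fold change -0.68). The rod phosphodiesterase gene pde6b had 1053, 1247 and 913 against 312 and 531 (log2 fold change -1.38, limma adjusted p = 0.136). Both CACF fish were below every normal-diet fish in rho and in pde6b.

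The other 6 retinal genes that fell belong to both photoreceptors and the inner retina. impg1a, a proteoglycan of the matrix around photoreceptors, had 347, 346 and 466 normalized counts on the normal diet, 28.3 and 66.6 with CACF, and 390 and 343 on the high-fat diet (8.62-fold lower, limma adjusted p = 0.0303). pdcb, a phosducin that binds transducin subunits, had 2515, 1801 and 2422 against 286 and 503 with CACF and 1425 and 1965 on the high-fat diet (adjusted p = 0.0283). cabp5b, a calcium-binding protein gene whose mouse counterpart is expressed in bipolar cells, had 1243, 1243 and 1354 against 224 and 237 with CACF and 1206 and 1125 on the high-fat diet (log2 fold change -2.47 ± 0.21 or 5.54-fold lower, adjusted p = 0.00896). The replicates of cabp5b were close to each other in every group. Its paralog cabp5a fell 5.17-fold (adjusted p = 0.0283). myo3a, a myosin of photoreceptors and hair cells, fell 4.97-fold, and lrit1a, whose mouse counterpart is a synaptic protein of photoreceptors, fell 4.01-fold.

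**Figure D3:**
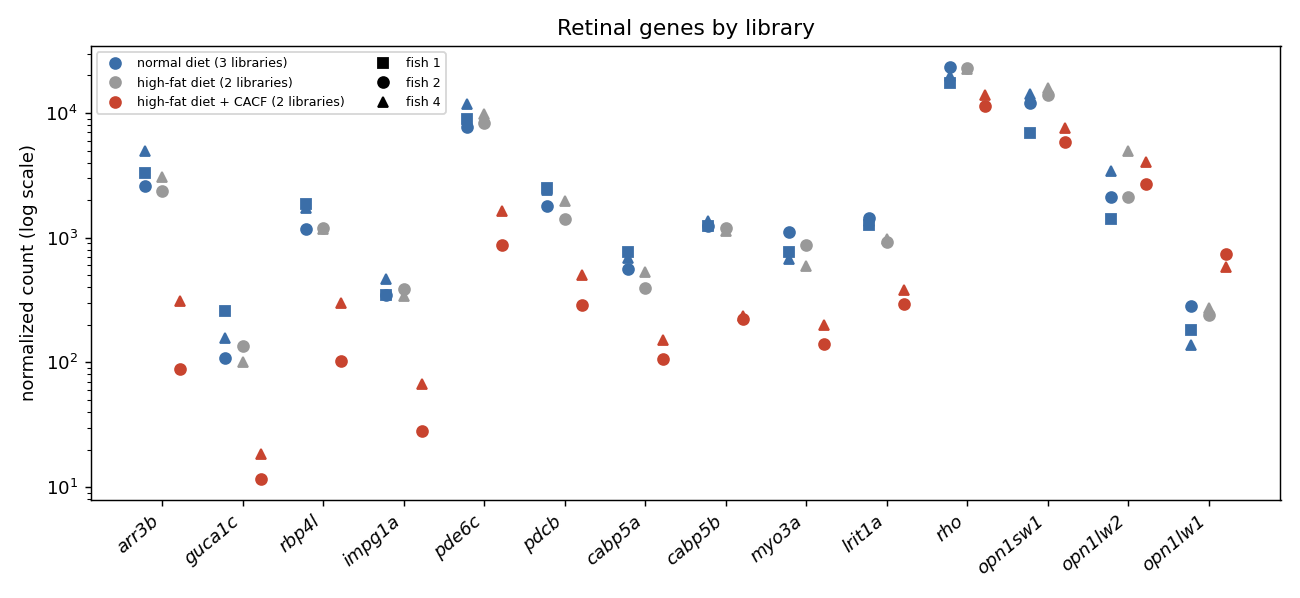
Normalized counts (log scale) of 10 retinal genes that fell and 4 opsin genes in each of the 7 libraries, coloured by group and shaped by fish number. In the 10 genes from arr3b to lrit1a both CACF fish lie below all other fish, while opn1lw2 overlaps and opn1lw1 is highest with CACF (740 and 581).

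The 12 other genes that fell did not belong to one pathway. The largest change among them was in si:ch211-132b12.7, a gene named only by its clone, with 4829, 5248 and 7108 normalized counts on the normal diet, 84.8 and 373 with CACF, and 4257 and 4156 on the high-fat diet (log2 fold change -4.98 ± 0.52 or 31.5-fold lower, limma adjusted p = 0.0189). camkk1b, a calcium-dependent kinase of the family that activates AMPK and CaM kinases, had 1557, 654 and 1040 against 29.9 and 119 with CACF and 951 and 733 on the high-fat diet (16.7-fold lower, adjusted p = 0.0446). The CACF fish were below all others in both genes. prlra, a prolactin receptor, had 724, 590 and 532 against 124 and 128 with CACF and 393 and 310 on the high-fat diet (4.82-fold lower, adjusted p = 0.0242). abcc8b, a sulfonylurea receptor subunit of potassium channels closed by ATP, fell 4.91-fold (adjusted p = 0.046). The glutamate transporter slc1a8b fell 4.59-fold, the phosphatase-family gene ppm1na 9.01-fold and the splicing gene smu1b 3.58-fold. The others were lonrf1l, tpd52l1, zgc:158785, si:ch211-207l14.1 and the long noncoding RNA BX510923.1, at 3.47- to 7.91-fold lower.

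The genes with the smallest p among those higher with CACF did not pass the test, and their values are descriptions. Of the 10, arntl1a and opn1lw1 are described above. The neurofilament gene nefmb had 163, 209 and 204 normalized counts on the normal diet, 820 and 456 with CACF, and 249 and 248 on the high-fat diet (log2 fold change 1.68 ± 0.31, limma adjusted p = 0.0972). The unconventional myosin gene myo10l1 had 89.6, 106 and 98.7 against 441 and 285 with CACF and 71.4 and 56.8 on the high-fat diet (log2 fold change 1.85 ± 0.33, adjusted p = 0.094). Both CACF fish were above all other fish in these genes. The kinetochore gene kntc1 and the tubulin gene tubb2 had log2 fold changes of 1.73 and 1.71, and mapkbp1, sptbn4b, spag9a and nckap5l lay between 1.43 and 2.13. Of these, spag9a passed with the replicate block (limma adjusted p = 0.042).

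Over 47 gene lists (31 pathways and 16 sets of cell type markers), calls occurred only in the clock, cone and glucocorticoid lists, the last through per1a and per1b. The other lists held 0 calls without the replicate block, so their medians describe these fish and are not tests. The glucocorticoid and fasting list had a median of -0.78 over 39 tested, but -0.08 without normal-diet fish 1 and CACF fish 2. For that list the high-fat libraries alone had a median of -0.93 against the same controls. Counting on TPM moved the median of all genes tested by 0.19 on the log2 scale, against -0.001 on normalized counts. Leaving out normal-diet fish 1 and CACF fish 2 moved many medians toward 0.

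**Figure D4:**
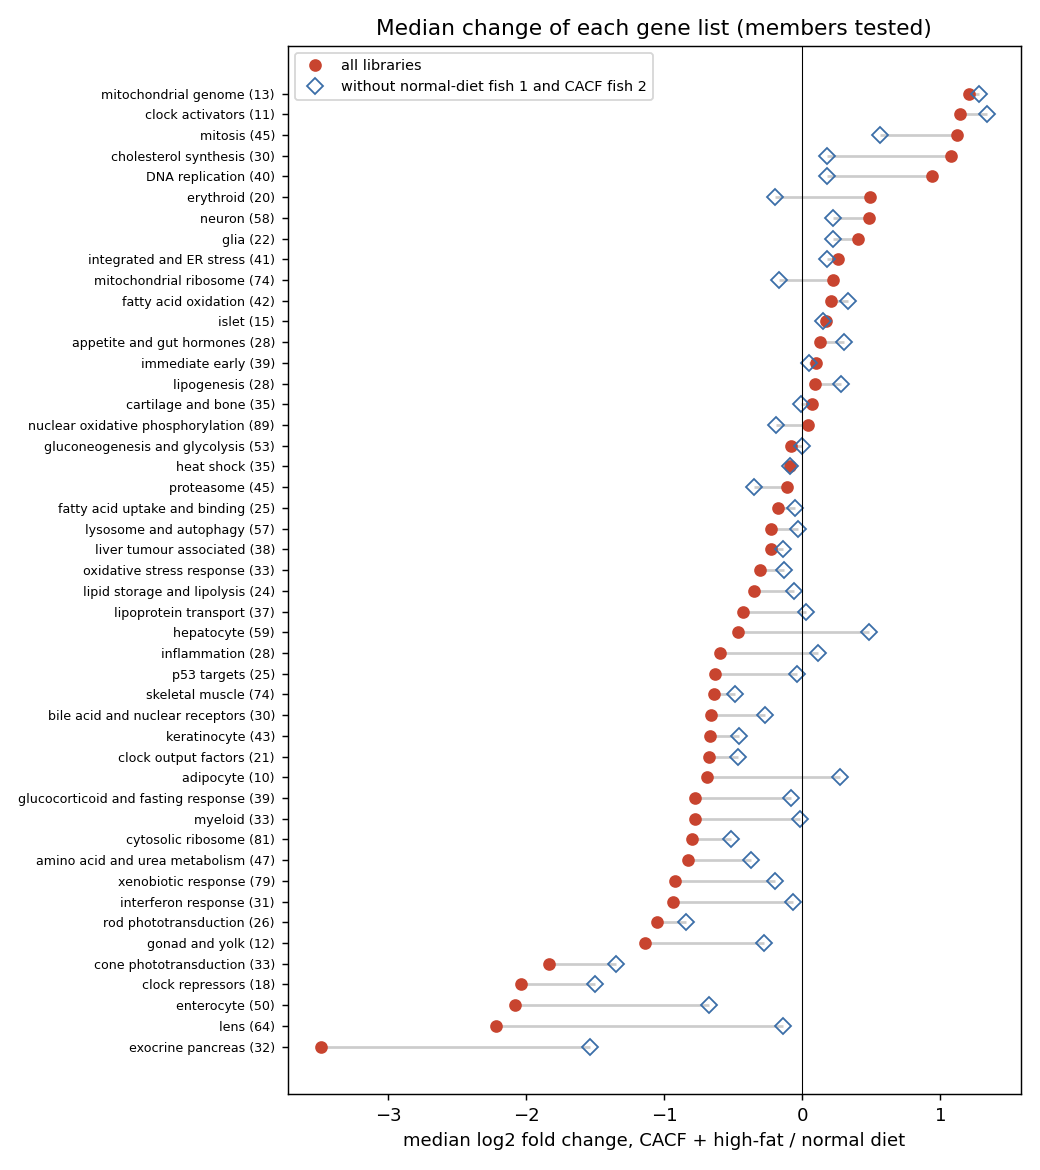
Median log2 fold change of CACF with high-fat diet over normal diet (x axis) for each list, with the number of members tested in parentheses. Filled points use all libraries and open diamonds leave out normal-diet fish 1 and CACF fish 2. Clock repressors stay at -2.04 and -1.50, whereas the lens list goes from -2.22 to -0.14.

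Digestive enzymes were low with CACF, but normal-diet fish 2 was low as well. Of 32 genes of the exocrine pancreas tested of 37, 31 were below the normal-diet mean, 15 did not overlap downward (46.9%, against 16.7% of all genes) and 0 passed the test, with 23 at an unadjusted p under 0.05. Over all 20906 genes, 1796 were lower at that unadjusted level. With the replicate block 9 of the list were lower, against 101 of all genes. The list summed to 36206, 2805 and 32728 normalized counts on the normal diet, 327 and 2889 with CACF, and 6254 and 16983 on the high-fat diet. CACF fish 4 was thus level with normal-diet fish 2, and only CACF fish 2 was below every control. The trypsin gene prss1 had 7356, 524 and 6147 against 29.9 and 369 (log2 fold change -4.75 ± 1.27, limma adjusted p = 0.231, and 0.0194 with the block). The median of the list was -3.49, and -1.54 without normal-diet fish 1 and CACF fish 2.

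Enterocyte genes showed a like pattern. Of 50 tested of 52, 46 were below the normal-diet mean and 21 did not overlap downward (42.0%, against 16.7% of all genes). The sums were 106333, 10321 and 32047 normalized counts on the normal diet, 12184 and 18511 with CACF, and 29468 and 34643 on the high-fat diet, so both CACF fish lay within the normal-diet range. The ileal bile acid transporter gene slc10a2 had 136, 66.2 and 145 against 21.6 and 28.5 with CACF and 45.9 and 61 on the high-fat diet (log2 fold change -2.10 ± 0.47, limma adjusted p = 0.167). The fatty acid binding gene fabp6, of the distal intestine, had 2679, 2509 and 3671 against 154 and 1541 with CACF and 4214 and 1057 on the high-fat diet. High-fat fish 4 was thus below CACF fish 4, and the log2 fold change of fabp6 went from -2.58 to -0.92 without CACF fish 2. The median of the list was -2.08, and -0.68 without the 2 fish that stood apart.

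Hepatocyte genes did not keep a direction. Of 59 tested of 61, 43 were below the normal-diet mean and 6 did not overlap downward (10.2%, less than the 16.7% of all genes), with a median of -0.47 that became 0.48 without the 2 fish that stood apart. In the amino acid and urea list, 40 of 47 tested were below the normal-diet mean and 23 did not overlap downward (48.9%, against 16.7% of all genes). Its median was -0.83, but -0.37 without the 2 fish that stood apart. hgd, an enzyme of tyrosine breakdown, had 1706, 1243 and 2248 normalized counts on the normal diet and 200 and 843 with CACF (limma adjusted p = 0.221). Its log2 fold change went from -2.03 to -0.99 without those 2 fish. Only bhmt, a methyltransferase of homocysteine, passed with the replicate block (adjusted p = 0.0475). The member with the smallest p was cbsa, a cystathionine synthase gene, with 405, 353 and 390 against 139 and 121 with CACF and 335 and 287 on the high-fat diet (log2 fold change -1.55 ± 0.25, adjusted p = 0.075).

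The series' title names lipid accumulation, and no gene of the lipid lists passed the test, apart from lpl with the replicate block. Fatty acid oxidation genes had a median of 0.21 over 42 tested, and of 0.33 without the 2 fish that stood apart. Of these genes 14 did not overlap upward (33.3%, against 16.3% of all genes) and 6 downward (14.3%, against 16.7%). The trifunctional protein gene hadhaa, of the mitochondrial cycle, had 189, 162 and 227 normalized counts on the normal diet, 405 and 442 with CACF, and 315 and 351 on the high-fat diet (log2 fold change 1.15 ± 0.26, limma adjusted p = 0.173). In hadhaa the high-fat fish were also above every normal-diet fish, and the CACF fish higher. By contrast ucp1, an uncoupling protein gene, had 12457, 2139 and 4781 against 155 and 1528 (adjusted p = 0.237).

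Genes that make and store fat differed little as groups. Lipogenesis genes had a median of 0.09 over 28 tested, and of 0.28 without the 2 fish that stood apart. Of these genes 5 did not overlap upward (17.9%) and 6 downward (21.4%), close to the 16.3% and 16.7% of all genes. acaca, the rate-limiting acetyl-CoA carboxylase, had 1986, 2138 and 2404 normalized counts on the normal diet, 1512 and 1412 with CACF, and 2118 and 2111 on the high-fat diet (log2 fold change -0.57 ± 0.21, limma adjusted p = 0.309). Lipid storage and lipolysis genes had a median of -0.35 over 24, and of -0.06 without the 2 fish that stood apart. Fatty acid uptake and binding genes had a median of -0.18 over 25, which was 0.04 on TPM and -0.05 without those 2 fish. fabp11a had 244, 269 and 294 against 822 and 498 with CACF and 477 and 362 on the high-fat diet, where the controls were lowest and the CACF fish highest (log2 fold change 1.25, adjusted p = 0.18).

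In lipoprotein transport, apoeb and lpl were the members with the smallest p. apoeb, an apolipoprotein E gene, had 10836, 8187 and 8854 normalized counts on the normal diet, 3422 and 4523 with CACF, and 6983 and 7071 on the high-fat diet (log2 fold change -1.23 ± 0.24, limma adjusted p = 0.115). lpl, the lipase that frees fatty acids from lipoproteins, had 3326, 1342 and 1265 against 327 and 516 with CACF and 686 and 787 on the high-fat diet (log2 fold change -2.11 ± 0.43, adjusted p = 0.122, and 0.042 with the replicate block). In both genes the high-fat fish lay between the 2 compared groups. The list of 37 had a median of -0.43 and, without the 2 fish that stood apart, of 0.03.

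Cholesterol synthesis genes were high in CACF fish 2 rather than in both CACF fish. Of 30 tested of 31, 26 were above the normal-diet mean and 11 did not overlap upward (36.7%, against 16.3% of all genes), with a median of 1.08 that was 0.16 without CACF fish 2. The list summed to 5585, 3918 and 4189 normalized counts on the normal diet, 14247 and 4785 with CACF, and 4047 and 5356 on the high-fat diet. The squalene epoxidase gene sqlea had 22.8, 14.9 and 38 against 416 and 38. The transcription factor gene srebf2, which drives this pathway, had 631, 569 and 637 against 1858 and 1114, and both CACF fish were above the controls (log2 fold change 1.23 ± 0.40, limma adjusted p = 0.277).

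Transcripts of the mitochondrial genome were abundant with CACF. All 13 protein-coding genes were above the normal-diet mean and 7 did not overlap upward (53.8%, against 16.3% of all genes), with a median log2 fold change of 1.21, or 1.28 without the 2 fish that stood apart. None of the 13 passed the limma test, and 9 had an unadjusted p under 0.05 (1075 higher of all 20906 genes). With the replicate block 5 rose, mt-nd4l, mt-nd5, mt-nd1, mt-atp6 and mt-nd2, against 11 of all genes. The 13 genes made up 16.6%, 9.26% and 7.06% of reads on the normal diet, 27.9% and 20.3% with CACF, and 13.0% and 10.3% on the high-fat diet. The CACF fish had the highest shares, and normal-diet fish 1 the next. mt-atp6, an ATP synthase subunit, had 191971, 104887 and 104468 normalized counts against 518275 and 311814 (log2 fold change 1.65 ± 0.45, limma adjusted p = 0.235, and 0.0404 with the block). The 89 nuclear oxidative phosphorylation genes tested had a median of 0.04, and of -0.19 without the 2 fish that stood apart. Of these, 8 did not overlap upward (8.99%, against 16.3% of all genes) and 15 downward (16.9%, against 16.7%).

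Cytosolic ribosomal protein genes were low together, by small amounts. All 81 tested were below the normal-diet mean and 77 did not overlap (95.1%, against 16.7% of all genes). Of the 81, 0 passed the limma test and 71 had an unadjusted p under 0.05 (1796 lower of all 20906 genes). Their median log2 fold change was -0.80, -0.52 without the 2 fish that stood apart, and -0.18 after quantile normalization, which forces the libraries to one distribution. The list took 9.93%, 11.3% and 14.5% of reads on the normal diet, 5.85% and 8.99% with CACF, and 11.8% and 13.3% on the high-fat diet. rpl10a had 25974, 21369 and 29963 normalized counts against 9884 and 15458 (limma adjusted p = 0.241). Mitochondrial ribosomal protein genes had a median of 0.22 over 74, which was -0.17 without the 2 fish that stood apart. The CACF fish had the largest shares of reads from the mitochondrial genome and the smallest from cytosolic ribosomal protein genes. The part of the mitochondrial shares in the ribosomal result was not tested.

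Genes of cell division were higher with CACF, and also on the high-fat diet alone. Of 45 mitosis genes tested of 46, 44 were above the normal-diet mean and 36 did not overlap (80.0%, against 16.3% of all genes), with a median of 1.12, and of 0.56 without the 2 fish that stood apart. The high-fat fish had a median of 0.71 against the same controls. None passed the limma test, and 29 had an unadjusted p under 0.05 (1075 higher of all 20906 genes). top2a, a topoisomerase of dividing cells, had 210, 222 and 341 normalized counts on the normal diet, 885 and 489 with CACF, and 367 and 475 on the high-fat diet (log2 fold change 1.38 ± 0.35, limma adjusted p = 0.205). cdk1, the mitotic kinase, had 103, 99.7 and 137 against 424 and 220 with CACF and 152 and 218 on the high-fat diet. CACF fish 2 was the highest library in both genes.

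DNA replication genes followed the same order with less weight on CACF. Of 40 tested, 37 were above the normal-diet mean and 17 did not overlap upward (42.5%, against 16.3% of all genes), with a median of 0.94 that became 0.18 without the 2 fish that stood apart. The high-fat fish had a median of 0.70 against the same controls. The list summed to 7124, 8763 and 9808 normalized counts on the normal diet, 23730 and 10825 with CACF, and 13803 and 14107 on the high-fat diet. CACF fish 4 was thus below both high-fat fish. The ribonucleotide reductase gene rrm2 had 138, 214 and 448 against 760 and 944 with CACF and 616 and 1181 on the high-fat diet (limma adjusted p = 0.223). The member with the smallest p, gins1, went the other way, as 1 of 3 members below the normal-diet mean. It had 275, 253 and 275 against 128 and 127 with CACF and 209 and 241 on the high-fat diet (log2 fold change -1.06 ± 0.26, limma adjusted p = 0.192).

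Among other tissues, most neuronal genes were above and most muscle and skin genes below the normal-diet mean, with no gene past the threshold. Of 58 neuronal genes tested of 60, 48 were above the normal-diet mean and 22 did not overlap upward (37.9%, against 16.3% of all genes). Their median was 0.48, but 0.28 without normal-diet fish 1 and 0.22 without both fish that stood apart. The neurofilament gene nefma passed with the replicate block (limma adjusted p = 0.042). Of 74 skeletal muscle genes tested of 76, 66 were below it and 40 did not overlap downward (54.1%, against 16.7% of all genes), with a median of -0.64, yet high-fat fish 2 had a lower sum (869497) than either CACF fish (908259 and 1020088). Keratinocyte genes had a median of -0.67 over 43 tested, and the high-fat fish a median of -0.61 against the same controls. The keratin gene krt15 had 1737, 1649 and 1965 normalized counts on the normal diet, 352 and 706 with CACF, and 1358 and 1052 on the high-fat diet (log2 fold change -1.83 ± 0.31, limma adjusted p = 0.0862). In krt15 the CACF fish were lowest and the high-fat fish lay between.

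**Figure D5:**
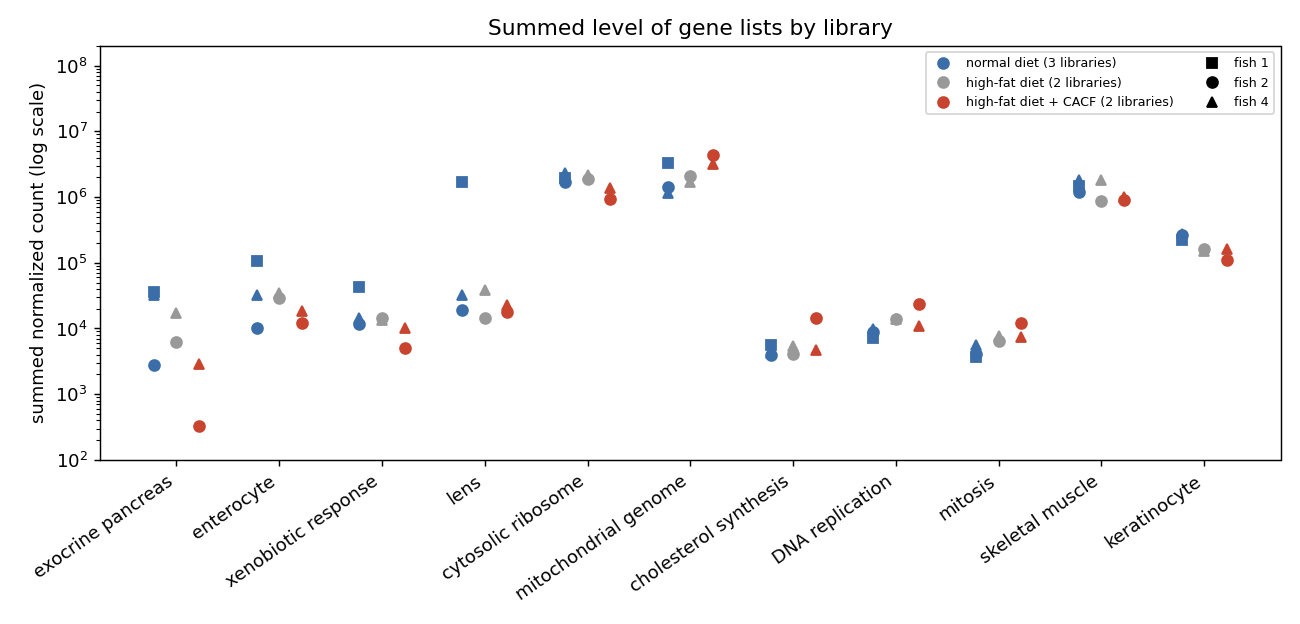
Summed normalized counts (log scale) of 11 gene lists in each of the 7 libraries, coloured by group and shaped by fish number. The lens sum is high in normal-diet fish 1 alone (1711628, against 14687 to 38753), the pancreas sum varies within the normal diet from 2805 to 36206, and the cholesterol synthesis sum is high in CACF fish 2 alone (14247).

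Stress, immune and detoxification lists held no call, apart from per1a and per1b in the glucocorticoid list. Xenobiotic response genes had a median of -0.92 over 79 tested of 113, and of -0.20 without the 2 fish that stood apart. The cytochrome P450 gene cyp2p7 had 365, 262 and 274 normalized counts on the normal diet, 39.1 and 104 with CACF, and 273 and 178 on the high-fat diet (limma adjusted p = 0.12). Interferon response genes had a median of -0.94 over 31 and inflammation genes of -0.60 over 28, which became -0.07 and 0.11 without those 2 fish. The heat shock list was near 0 with all libraries (median -0.09), but 0.33 without normal-diet fish 1 and -0.55 without CACF fish 2. The factor gene hsf2 of this list had 1277, 1422 and 1548 against 188 and 472 with CACF and 1673 and 1219 on the high-fat diet (log2 fold change -2.24 ± 0.37, limma adjusted p = 0.083). The metallothionein gene mt2 had 4009, 3042 and 1874 against 642 and 883 with CACF and 2675 and 1723 on the high-fat diet (adjusted p = 0.0972). In both hsf2 and mt2 the CACF fish were below all other fish.

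The authors' deposited table for this contrast gives 225 genes lower and 53 higher at its adjusted p under 0.05, of which 186 and 44 were tested here. Of these, 15 of the lower genes and 0 of the higher genes were among the 31. The 9 clock genes called here were all among the 15 except cipcb. Of the 10 retinal genes called here, only arr3b was. The other retinal genes had deposited DESeq2 adjusted p-values from 0.0532 (cabp5a) to 0.472 (cabp5b), with 0.364 for pde6c. DESeq2 on the recovered reads here gave adjusted p-values of 9.32e-14 for cabp5b and 2.17e-12 for pde6c. The log2 fold changes were close (-2.45 here and -2.47 deposited for cabp5b), so the 2 sets of p-values are not alike. The cause of that difference was not tested. The authors' deposited table of 4-fold changes lists 1960 genes lower and 949 higher, and 26 of the 31 are on the lower list. Of that lower list 734 genes (37.4%) and of the higher list 104 passed the filter on low values here, so most genes of both lists were at low counts.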

How the data were processed

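Total RNA of whole larvae was made into libraries with a stranded mRNA kit, per the labels' protocols. The submitters' processing notes name FastQC, Trimmomatic, HISAT2 and DESeq2 and no counting program; whether counting used strand is not given. The authors deposited counts scaled by size factors, here treated as a signal and called normalized counts; multiplied back, 100.0% of values were whole reads within a tolerance of 0.001. TPM, FPKM and coverage per gene, per the file headers, came in separate deposited files, with coordinates of GRCz11 as those files' names give it. Since rows of assembled loci take a share of the deposited TPM that differs between libraries, this unit served only as an alternative. Log2 fold changes, p-values and test scores in the authors' deposited comparison table were not used for calls.

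Genes with at least 10 normalized counts in at least 2 of 7 libraries were tested with limma (3.58.1, trend, R 4.3.3) on log2(normalized count + 1), with all 3 groups in the fit (4 residual degrees of freedom) and Benjamini-Hochberg adjustment over 20906 genes. Recovered whole reads were used for edgeR 4.0.16 and DESeq2 1.42.0 as alternatives. In simulated data for this contrast (20378 genes), the share of changed genes recovered was 0% at 2-fold, 23.9% at 4-fold and 86.4% at 16-fold, with 5 false calls. Genes named are all those called, the 10 smallest p among higher genes with a mean of at least 50 normalized counts, up to 4 members of each list by p, cd36, and further list members by role. Fish numbers are shared by the groups. Across all 3 groups, the deviations of the 6 same-numbered pairs from their group means correlated at 0.183 to 0.416, and with 2 fish a group some of these values mirror each other. A pairing of the samples by fish number is thus possible, as a property of the data and not of the labels. These few values cannot establish it, since the unmatched normal-diet fish 1 and CACF fish 2 correlated at 0.196, above the lowest matched value of 0.183. The fit without the block remains the reported one, and the blocked value is given where it changes a call. The block leaves fewer residual degrees of freedom than the 4 of the reported fit, and its contrast rests on fish 2 and 4 of each group. Since the pairing is not established, calls made only with the block are descriptions. The members and lists were chosen with earlier results of these data known. Gene lists were described by counts and medians, with no set test.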

Additional observations from a re-analysis of the deposited data

How the results depend on the processing

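The 31 genes lower and 0 higher were recomputed under 20 alternatives, and all 31 were lower in each. That direction was fixed in advance where libraries were left out or the pseudocount or filter changed, since the groups did not overlap. Counts within 1.5 times came from a pseudocount of 5 or 20, other filters on low values, TMM scaling and quantile normalization (28 to 33 lower, 0 higher). TPM gave 15 lower, of which 12 were shared. Fitting the compared groups alone gave 2 lower, robust moderation 52, and leaving out normal-diet fish 1 and CACF fish 2 gave 5. Leaving out each library in turn gave 0 to 344 lower and 0 to 28 higher. Where only 1 CACF fish is left, it is assumed to vary like the other groups. edgeR gave 4 lower and 0 higher, and DESeq2 543 lower and 128 higher. The cause of these differences was not tested. With a replicate block, 101 genes were lower and 11 higher, the 31 among them, and beside the calls named in the text it changed no call of a gene named there. Normal-diet fish 1, whose number no other group shares, correlated at 0.196 with CACF fish 2. In the simulated data, with 2 CACF libraries, the test rarely recovered changes of 4-fold or less, so genes not called are not shown to be alike. The simulated reads were drawn independently for each gene, with no fish that stood apart, so recovery in the real libraries can differ.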

Other observations

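Germ cell genes were at low counts and none passed the limma test. ddx4 (vasa), a germ plasm helicase, had 52.7, 23.1 and 20.2 normalized counts on the normal diet, 0.0 and 1.46 with CACF, and 20.4 and 16.5 on the high-fat diet. The CACF fish were below all others (limma adjusted p = 0.094). The piRNA pathway gene tdrd1 had 39.5, 13.4 and 18.6 against 3.33 and 2.93 with CACF and 6.38 and 4.13 on the high-fat diet, and its high-fat fish were also below the normal-diet fish. The 12 genes tested of 36 in the gonad and yolk list summed to 309 to 517 on the normal diet, 159 and 292 with CACF, and 334 and 615 on the high-fat diet. Their median log2 fold change was -1.14, but -0.28 without normal-diet fish 1 and CACF fish 2 and -0.01 on TPM.

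The glutamate transporter gene slc1a2a, placed here in the glia list, had 633, 755 and 1045 normalized counts on the normal diet, 34.9 and 156 with CACF, and 806 and 729 on the high-fat diet (log2 fold change -3.40 ± 0.54, limma adjusted p = 0.0718, and 0.0276 with the replicate block). The other members of the glia list did not share its size, since the list's median was 0.40 over 22 tested, and 0.22 without normal-diet fish 1 and CACF fish 2. The hypothalamic peptide gene oxt had 90.5, 118 and 67.5 against 244 and 178 with CACF and 122 and 120 on the high-fat diet (adjusted p = 0.25). Both CACF fish were above all others in oxt.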
